A study of Rattus norvegicus with 6 samples.

Results

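The enzymes that hydroxylate and crosslink collagen were followed in bone marrow mesenchymal stem cells (BMSCs) that overexpressed FNDC5, a membrane protein whose cleaved part is irisin. They comprised 10 genes chosen by name, namely the lysyl oxidases Lox, Loxl1, Loxl2 and Loxl3, the lysyl hydroxylases Plod1, Plod2 and Plod3, the prolyl 4-hydroxylase alpha subunits P4ha1 and P4ha2, and the transglutaminase Tgm2. All 10 were found among the 33508 genes of the count table, and all 10 passed the filter on low counts that left 12104 genes for testing. RNA-seq covered 3 libraries of BMSCs-OE-FNDC5 (here FNDC5 cells) and 3 of BMSCs-OE-NC (here control cells). By the study's methods, marrow of the long bones of male Sprague-Dawley rats aged 2 months gave the cells, which were passaged and then transduced with lentivirus, carrying FNDC5 in the former group and blank in the latter. Both groups spent 24 h in hypoxia/serum deprivation (H/SD), at 1% O2 in medium without glucose and serum, so that the response of the enzymes to low oxygen itself was not measured here. The libraries of each group are labelled as biological replicates, without a statement that they came from separate rats or transductions, so p-values measure the spread between these libraries.

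Collagen chains are modified in the endoplasmic reticulum before they leave the cell. Prolyl 4-hydroxylase, built of alpha subunits with the P4hb protein, hydroxylates prolines and so lets the triple helix hold at body temperature. Lysyl hydroxylases hydroxylate lysines, and the product of Plod2 acts on the ends of the chains, where it sets the type of crosslink. Outside the cell, lysyl oxidases, which need copper, oxidize lysines and hydroxylysines of collagen and elastin so that neighbouring chains become joined. Transglutaminase 2 joins glutamine to lysine in matrix proteins. The hydroxylases use oxygen, 2-oxoglutarate, iron and ascorbate, and several of these genes are known targets of hypoxia-inducible factors.

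The control libraries held 17430287 to 17965722 counts and the FNDC5 libraries 16640635 to 17229490. Fndc5 had 17 to 25 counts in the former and 64195 to 65589 in the latter. No pair of libraries was identical within sampling noise (chi-square per degree of freedom of at least 3.82 in 6 pairs within groups). All 8 listed mesenchymal markers were detected, and 4 rose and 4 fell in the FNDC5 cells (edgeR). Of the 4 highest, Vim (log2 fold change 0.94) and Cd44 (0.41) rose, and Pdgfrb (-1.62) and Col1a1 (-0.34) fell. With library size only Cd44 was at 0.04 and did not pass, and after correction for a trend with gene length in each library Pdgfrb was at -0.90 and Col1a1 at 0.39. Of 21 listed markers of blood, endothelial, epithelial, retinal and nerve cells, 11 had no count in any library, including Ptprc, Cdh5, Kdr, Crx and Nrl. The summed level of the 21 was 117 to 126 CPM (counts brought to one library size, here with edgeR's TMM factors) in the control cells and 247 to 255 CPM in the FNDC5 cells, and most of it came from Cd14 (98.5 and 197 CPM). All 6 of these markers that passed the filter rose in the FNDC5 cells (edgeR, median log2 fold change 1.14). Stmn2 went from a mean of 17.4 to 42.4 CPM, a log2 fold change of 1.29. Tubb3 (2.21), Krt8 (0.98) and Cd68 (0.75) were low, with group means of at most 4.02 CPM. Cd68 did not pass with library size only or with the length trend removed. The part of the 21 markers in the results was not tested. The labels describe an extraction from retinas, whereas Crx and Nrl, which are retinal genes, were at 0 in all libraries.

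Of the 10 enzymes, 7 fell in the FNDC5 cells, 2 rose and 1, Plod1, did not pass the test (edgeR's quasi-likelihood test, p adjusted over all genes tested by Benjamini-Hochberg, under 0.05). Over all genes tested, 38.8% fell and 36.9% rose by the same rule. As log2 of the fold change, in which a negative value is lower in the FNDC5 cells, the median was -0.58 for the enzymes and -0.04 for all genes tested. With the trend with gene length removed, these medians were -0.41 and 0.03. Below, ± gives the SD of the 3 libraries of a group and SE the standard error. With a log2 fold change beyond 1 as well, Tgm2, Lox and Loxl2 were lower and 0 enzymes were higher, where 17.5% and 9.84% of all genes were lower and higher. In 9 of the 10 the groups did not overlap, 7 of them lower and 2 higher, as was the case for 78.3% of all genes tested (40.4% lower and 37.9% higher). Together the 10 genes took 0.393% to 0.398% of all counts in the control cells and 0.167% to 0.169% in the FNDC5 cells. In bulk RNA, a smaller number of expressing cells and less RNA in each cell cannot be told apart.

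**Figure D1:**
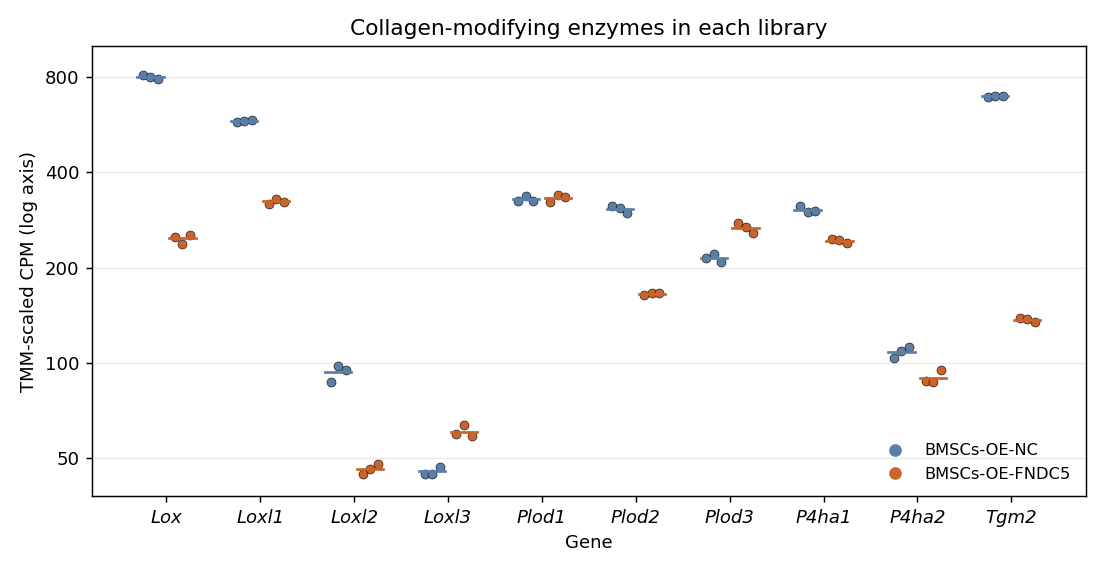
Level of the 10 enzymes in each of the 6 libraries in TMM-scaled CPM, on a log axis, with bars at the group means (n = 3). The groups overlap for Plod1 alone, and Tgm2 shows the widest gap, from a mean of 694 to 137 CPM.

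Tgm2 fell the most. Tgm2 (ENSRNOG00000012956, chromosome 3 from 154597168 to 154627257 in the table's own coordinates, whose build is not named) had 691, 694 and 698 CPM in the control cells and 138, 137 and 134 CPM in the FNDC5 cells. Every library of the FNDC5 cells was thus far below every control library. The fall was 5.08-fold, a log2 value of -2.35 (SE 0.03, edgeR adjusted p = 2.6e-13).

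Lox, the founding lysyl oxidase, stood second. Lox (ENSRNOG00000014426, chromosome 18 from 47500330 to 47577819) had 810, 798 and 789 CPM in the control cells and 250, 238 and 254 CPM in the FNDC5 cells. The groups did not overlap, with a log2 value of -1.69 (SE 0.03, edgeR adjusted p = 3.3e-12). The relatives of Lox did not move together. Loxl1, which is known for its role in elastic fibres (ENSRNOG00000008680, chromosome 8 from 63067300 to 63092009), had 574, 580 and 585 CPM against 318, 329 and 323 CPM. This was a fall of 1.79-fold (log2 fold change -0.84, SE 0.03, edgeR adjusted p = 1.5e-10). Loxl2, which is active on basement membrane collagen (ENSRNOG00000016758, chromosome 15 from 51303909 to 51365234), had 87.3, 98.2 and 95.1 CPM against 44.6, 46.2 and 48.0 CPM. All 3 FNDC5 libraries were below every control library. Its log2 fold change (-1.01, SE 0.05, edgeR adjusted p = 1.3e-08) lay at the fold threshold and fell short of it without replicate 2 of the control cells (-0.99) or replicate 1 of the FNDC5 cells (-0.99).

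Loxl3 was the lysyl oxidase that rose with TMM scaling. Loxl3 (ENSRNOG00000061373, chromosome 4 from 113866804 to 113883477) had 44.7, 44.7 and 47.1 CPM in the control cells and 59.7, 63.6 and 59.0 CPM in the FNDC5 cells. The log2 fold change (0.42, SE 0.05, edgeR adjusted p = 1.1e-05) was reduced to 0.05, and did not pass, with scaling by library size only (adjusted p = 0.40). Under that scaling the median over all genes tested was -0.41 in place of -0.04. The counts of Loxl3 before scaling were 897 to 933 in the control and 891 to 932 in the FNDC5 libraries.

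The 3 lysyl hydroxylases took 3 different courses with TMM scaling. Plod2 (ENSRNOG00000030183, chromosome 8 from 99977334 to 100059736) had 313, 309 and 296 CPM in the control cells and 164, 166 and 167 CPM in the FNDC5 cells. It fell with a log2 value of -0.89 (SE 0.03, edgeR adjusted p = 4.4e-10). Plod1, which hydroxylates lysines of the helix (ENSRNOG00000007763, chromosome 5 from 164720587 to 164747083), had 323, 336 and 325 CPM against 323, 338 and 335 CPM. The values of both groups were mixed, with a log2 fold change of 0.02 (95% interval -0.05 to 0.08, edgeR adjusted p = 0.64). With library size only it was -0.35 and with the trend with gene length removed 0.26, both past the test, so its direction depended on the scaling. Plod3, which also adds glucose to galactosylated hydroxylysine (ENSRNOG00000001417, chromosome 12 from 22716423 to 22726982), had 214, 221 and 208 CPM against 276, 268 and 256 CPM. All 3 FNDC5 libraries were higher (log2 fold change 0.32, SE 0.04, edgeR adjusted p = 9.2e-06), although with library size only the value was -0.05 and did not pass (adjusted p = 0.21). Plod3 overlaps Znhit1 on the opposite strand, a gene with 740 to 1207 counts, and the strand setting of the counting is not stated.

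Within a library, the log2 ratio of Plod2 to Plod1, in counts per base of gene length, was -0.36, -0.44 and -0.45 in the control cells and -1.30, -1.34 and -1.32 in the FNDC5 cells. For each unit of Plod1 there was 0.749 of Plod2 in the control cells and 0.401 in the FNDC5 cells. The groups did not overlap (difference -0.90, or -0.75 with the length trend removed, two-sided p = 0.1 by exact permutation, which cannot go lower with 3 against 3).

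With TMM scaling, Plod2 fell, Plod3 rose and Plod1 did not pass. With library size only, Plod1 and Plod2 both fell and Plod3 did not pass. The promoters of these closely related genes are shown as a description, and no link to their changes was tested. They are RefSeq sequences of the GRCr8 assembly, matched by symbol, and cover the 250 bases before each start, 5′ to 3′ on the strand of the gene, at chr5:163650738-163650987 (minus strand) for Plod1, chr8:101964068-101964317 (plus strand) for Plod2 and chr12:25323632-25323881 (minus strand) for Plod3. Capitals mark ACGTG and GCGTG, the core letters of hypoxia response elements, and GGGCGG, the GC box bound by Sp factors, on either strand.
Plod1: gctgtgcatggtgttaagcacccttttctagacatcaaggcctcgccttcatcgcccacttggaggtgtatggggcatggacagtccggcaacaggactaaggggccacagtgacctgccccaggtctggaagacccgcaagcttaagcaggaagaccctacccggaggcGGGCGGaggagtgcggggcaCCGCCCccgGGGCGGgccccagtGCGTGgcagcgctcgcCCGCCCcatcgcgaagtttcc
Plod2: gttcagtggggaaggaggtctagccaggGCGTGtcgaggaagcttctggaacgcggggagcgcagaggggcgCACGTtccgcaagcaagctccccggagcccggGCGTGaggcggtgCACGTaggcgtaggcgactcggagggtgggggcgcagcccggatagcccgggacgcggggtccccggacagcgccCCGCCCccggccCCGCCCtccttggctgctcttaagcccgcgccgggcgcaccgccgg
Plod3: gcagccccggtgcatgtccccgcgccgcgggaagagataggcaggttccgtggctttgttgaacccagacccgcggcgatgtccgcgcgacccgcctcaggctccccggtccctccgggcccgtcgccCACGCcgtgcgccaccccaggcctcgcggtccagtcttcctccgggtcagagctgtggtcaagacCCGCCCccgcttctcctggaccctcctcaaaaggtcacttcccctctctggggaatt
Plod2 held 2 matches to ACGTG, 2 to GCGTG and 2 to GGGCGG. Plod1 held 4 GC boxes and 1 GCGTG, and Plod3 held 1 GC box and 1 GCGTG. None of the matches in the 3 windows overlapped. Of 33469 promoters in the table, 16.6% held ACGTG, 25.9% GCGTG and 30.5% GGGCGG in the same window. Among the 7 enzymes with an entry, ACGTG was present in Plod2 and P4ha2, GCGTG in all but Loxl1, and GGGCGG in the 3 Plod genes and P4ha2. Lox, Loxl2 and Tgm2 had no entry. G and C made up 60.4% (Loxl1) to 74.8% (Plod2) of the windows of the 7 enzymes. The 33469 promoters were not limited to tested genes or matched for G and C. Whether the enzymes hold more of these motifs was therefore not tested.

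Of the prolyl 4-hydroxylase alpha subunits, P4ha1 and P4ha2 fell slightly, while P4ha3, described further below, rose. P4ha1 (ENSRNOG00000050655, chromosome 20 from 28920616 to 28971966) had 313, 300 and 301 CPM in the control cells and 247, 244 and 239 CPM in the FNDC5 cells (log2 fold change -0.33, SE 0.03, edgeR adjusted p = 1.5e-06). P4ha2 (ENSRNOG00000033663, chromosome 10 from 39435227 to 39464188) had 104, 109 and 112 CPM against 87.8, 87.0 and 95.1 CPM (log2 fold change -0.27, SE 0.05, edgeR adjusted p = 2.9e-04). In both genes the lowest control library was above the highest FNDC5 library, with a wider gap for P4ha1 (300 against 247 CPM) than for P4ha2 (104 against 95.1 CPM). The log2 ratio of P4ha2 to P4ha1 was -1.69 ± 0.09 (SD, n = 3) and -1.63 ± 0.09 (SD, n = 3), a difference of 0.06 that was smaller than the spread (exact permutation test, two-sided p = 0.6). With the length trend removed the difference was 0.15 and the groups did not overlap (exact permutation, two-sided p = 0.1).

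**Figure D2:**
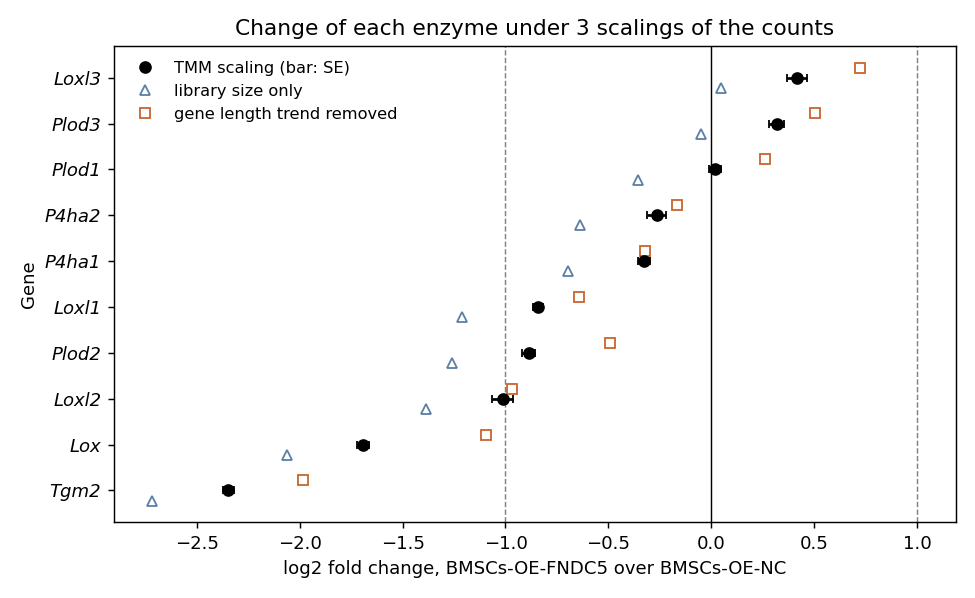
Log2 fold change of each enzyme, FNDC5 cells over control cells (x axis), with TMM scaling and its standard error (filled circles), with library size only (triangles) and after removal of the gene length trend (squares). Tgm2 stays at or below -1.98 in all 3, whereas Plod1 lies at 0.02, -0.35 and 0.26 in that order.

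In these libraries the median log2 fold change went from 0.65 in the shortest of 8 groups of genes ordered by length to -0.84 in the longest. The enzymes, with gene lengths of 2121 to 4807 bases, lay in the fourth to the eighth of these groups. Lox, at 4807 bases, belonged to the longest group, and Tgm2, at 3506 bases, to a group with a median of -0.26. With the trend removed in each library, Tgm2 was at -1.98, Lox at -1.10, Loxl2 at -0.97, Loxl1 at -0.64 and Plod2 at -0.49, and all 7 enzymes that fell still passed the test.

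Compared per length, the order of the enzymes also changed. By FPKM, the deposited level divided by gene length, Loxl1 was the highest in the control cells (204 ± 1.60, SD, n = 3), followed by Tgm2 (195 ± 0.507), Lox (163 ± 2.48), P4ha1 (141 ± 3.51) and Plod1 (109 ± 2.42). Plod2 (82.0 ± 2.49) and Plod3 (76.5 ± 2.48) came next, and P4ha2 (43.7 ± 1.67) and Loxl2 (40.9 ± 2.44), whose libraries overlapped, stood above Loxl3 (13.8 to 14.4). In the FNDC5 cells, Loxl1 (116 ± 1.89), P4ha1 (115 ± 1.78) and Plod1 (113 ± 2.78) shared the top with overlapping libraries. Tgm2 moved from the second to the seventh place (39.0 ± 0.567) and Lox from the third to the fifth (51.5 ± 1.79), while Plod3 moved from the seventh to the fourth (97.1 ± 3.51). Loxl2 (20.6 ± 0.772) and Loxl3 (19.0 ± 0.768) then overlapped at the lower end, as did Tgm2 and P4ha2 (37.0 ± 1.87).

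Within the lysyl oxidase family, with Loxl4 included, the share of Lox in the summed FPKM was 37.2% to 38.6% across the control libraries and a mean of 24.5% ± 0.884 (SD, n = 3) across the FNDC5 libraries. Loxl1 held 46.9% to 47.5% in the control and 54.6% to 55.8% in the FNDC5 libraries. Loxl3 held 3.16% to 3.34% in the former and 8.73% to 9.43% in the latter, while the summed FPKM of the family, most of it Lox and Loxl1, went from 433 to 210. The share of Loxl2 overlapped between the groups, at 8.89% to 9.87% and 9.54% to 10.1%. In log2 terms, the ratio of Loxl1 to Lox went from 0.32 ± 0.03 to 1.17 ± 0.07 (SD, n = 3), and that of Loxl2 to Lox from -2.00 ± 0.10 to -1.32 ± 0.06 (SD, n = 3). Neither ratio overlapped between groups (two-sided p = 0.1 each by exact permutation). Lox is the longest of the enzymes, and with the length trend removed, an alternative chosen after seeing the data, the difference was 0.45 in place of 0.85 for Loxl1 to Lox. For Loxl2 to Lox it was 0.13 in place of 0.68, and the groups then overlapped (exact permutation, two-sided p = 0.3). The 4 ratios form a family of tests in which p cannot go below 0.1 before adjustment.

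Among the lysyl hydroxylases, Plod2 made up 30.3% to 31.2% of the family in the control cells and 17.5% to 18.0% in the FNDC5 cells, and Plod3 28.3% to 28.8% and 37.0% to 39.5%. The third prolyl 4-hydroxylase alpha subunit, P4ha3, which is not one of the 10 enzymes, went from 75.3 ± 0.990 to 197 ± 9.65 CPM. It had a log2 fold change of 1.38 (edgeR adjusted p = 1.2e-10), and its share of the family was 19.3% to 19.5% in the control and 42.4% to 45.0% in the FNDC5 libraries, the latter overlapping that of P4ha1 at 41.5% to 44.0%. The summed FPKM of the lysyl oxidases was 433 ± 2.91 in the control cells and 210 ± 2.02 in the FNDC5 cells (SD, n = 3). The lysyl hydroxylases came to 268 ± 6.42 and 255 ± 2.42 (SD, n = 3), and the prolyl 4-hydroxylase subunits to 230 ± 2.60 and 270 ± 5.33 (SD, n = 3). The last direction depended on the scaling. With scaling by total counts only, the prolyl 4-hydroxylase sum was 265 ± 2.16 in the control and 237 ± 4.57 in the FNDC5 cells (SD, n = 3). The lysyl hydroxylase sum was then 310 ± 7.18 and 224 ± 2.84 (SD, n = 3), a wider fall. With the length trend removed, Plod1 (log2 fold change 0.26) and Plod3 (0.50) rose and Plod2 (-0.49) fell. The direction of the lysyl hydroxylase sum under that setting was not tested.

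**Figure D3:**
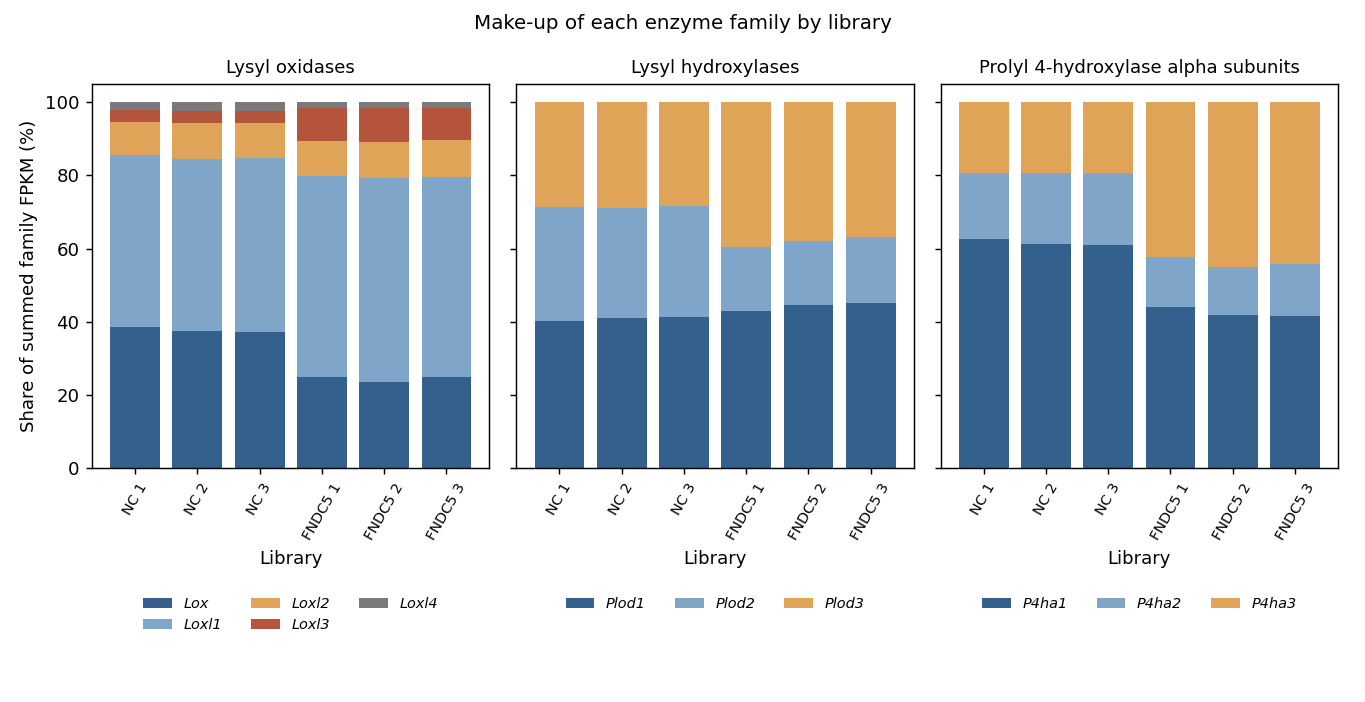
Share of each gene in the summed FPKM of its family (y axis, percent) in the 6 libraries (x axis, NC for control cells and FNDC5 for FNDC5 cells). Lox, Loxl4, Plod2, P4ha1 and P4ha2 take a smaller share in all 3 FNDC5 libraries. Loxl1, Loxl3, Plod1, Plod3 and P4ha3 take a larger one in all 3.

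Other relatives of the enzymes mostly did not pass the test. Of 9 tested relatives 2 rose, 1 fell and 6 did not pass (median log2 fold change 0.02). With library size only 2 rose and 6 fell, and with the length trend removed 4 rose and 1 fell. Besides P4ha3, the rise was that of P3h4, which belongs to the complex that modifies collagen lysines (0.57), and Loxl4 fell from 31.2 ± 1.64 to 9.93 ± 0.505 CPM, or log2 -1.65. The prolyl 3-hydroxylases P3h1 (0.02) and P3h3 (0.06) did not pass, although with library size only they were at -0.35 and -0.31 and passed. With the length trend removed P3h1 was at 0.16 and passed, and P3h3 passed without FNDC5 replicate 3 (0.11).

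Partners of the enzymes in the endoplasmic reticulum went both ways. Of 16 tested, 5 rose, 8 fell and 3 did not pass (median -0.15), against 1 and 14 with library size only, and past the fold threshold 0 rose and 1 fell, Mia2 (-1.08), which was named after its value was seen. P4hb, the beta subunit of prolyl 4-hydroxylase, went from 2739 ± 33.3 to 3047 ± 54.5 CPM, a log2 fold change of 0.15, and was at -0.22 with library size only. The collagen chaperone Serpinh1 (0.09) and the prolyl isomerase Ppib (0.19) rose with TMM scaling and were at -0.28 and -0.18 with library size only. Upper-quartile scaling put Serpinh1 at -0.02, and Ppib was at -0.26 with the length trend removed. The general chaperone Hspa5 fell (-0.62).

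Of 12 tested genes of procollagen maturation and fibril assembly, 3 rose, 4 fell and 5 did not pass (median -0.20). With library size only 1 rose and 10 fell, and with the length trend removed 7 rose and 4 fell. Tll1, a protease of the family that removes the C-propeptide, fell from 72.9 ± 1.82 to 13.4 ± 0.505 CPM, with log2 fold changes of -2.44 and, with the length trend removed, -1.86. Pcolce, an enhancer of such cleavage, fell (-0.26), and fibronectin, Fn1, rose (0.57, or 1.53 with the length trend removed). Bgn (0.28) and Sparc (0.07) rose with TMM scaling but were at -0.09 and -0.30 with library size only, and Sparc was at -0.04 with upper-quartile scaling.

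The substrates were split in direction. Of 15 tested genes of collagens and elastic fibres, 5 rose, 7 fell and 3 did not pass (median -0.11). Col3a1 rose (0.77, or 1.36 with the length trend removed), and Col1a1 (-0.34) and Col5a2 (-0.26) fell with TMM scaling but were at 0.39 and 0.29 with the length trend removed. With that trend removed 9 of the substrates rose and 2 fell. Col1a2 varied widely within the control group, at 947 ± 307 CPM (SD, n = 3), and did not pass (edgeR adjusted p = 0.66), although without control replicate 1 it was at -0.36 and passed (edgeR adjusted p = 0.029). Fbln5, which brings lysyl oxidase-like 1 to elastic fibres, fell from 38.1 ± 1.82 to 5.11 ± 0.945 CPM, with log2 fold changes of -2.89 and, with the length trend removed, -2.78.

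**Figure D4:**
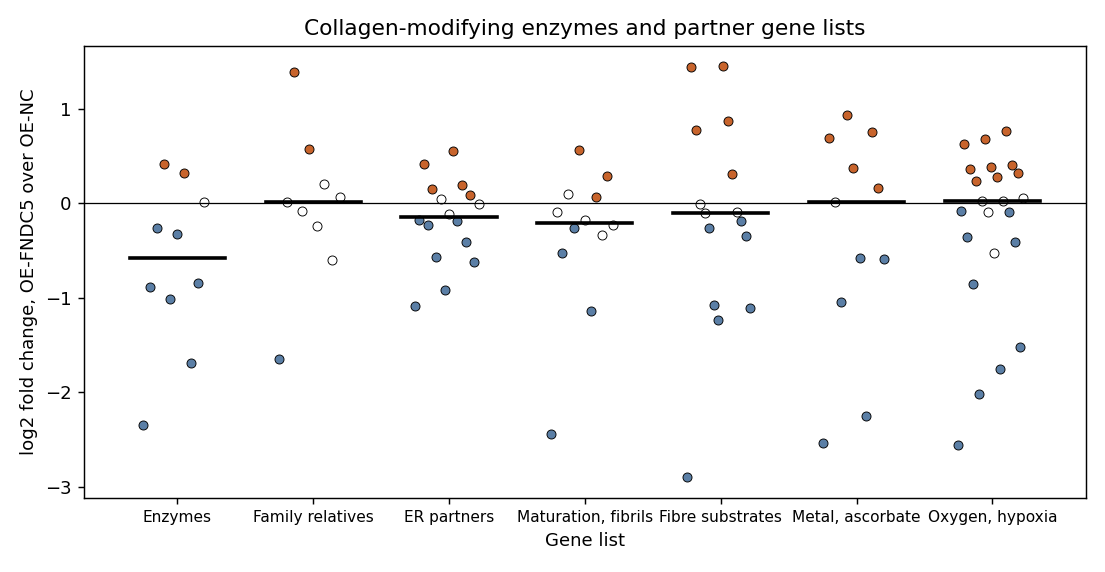
Log2 fold change, FNDC5 cells over control cells (y axis), of the 10 enzymes and of the tested genes of 6 partner lists (x axis), with filled points past an adjusted p under 0.05, open points not, and bars at the medians. With TMM scaling the median is -0.58 for the enzymes and lies between -0.20 and 0.02 in the partner lists.

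Genes that supply the metals and ascorbate were split, with 5 up, 5 down and 1 not passing of 11 tested (median 0.01), and 3 up and 7 down with library size only. Slc23a2, an ascorbate transporter, fell from 142 ± 1.11 to 68.8 ± 3.81 CPM, with log2 fold changes of -1.05 and, with the length trend removed, -0.26. Atp7a, the pump that loads copper onto lysyl oxidase, was low and fell from 4.80 ± 1.03 to 0.826 ± 0.116 CPM, with log2 fold changes of -2.53 and, with the length trend removed, -1.57. The transferrin receptor Tfrc fell as well (-2.25, or -1.65 with the length trend removed). The zinc and iron transporter Slc39a14 was at -0.59, and at -0.01 without the length trend, where it did not pass. Slc39a13, a zinc transporter, was at 0.17, at 0.06 with upper-quartile scaling, where it did not pass, and at -0.20 with library size only, and Ccs, a copper chaperone, rose (0.94).

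Genes that sense or respond to low oxygen moved in both directions, with 9 up, 9 down and 5 not passing of 23 tested (median 0.02), and 3 up and 15 down with library size only. Among them Hif1a, the oxygen-regulated subunit of hypoxia-inducible factor 1, fell from 133 ± 0.886 to 32.8 ± 3.78 CPM, or log2 -2.02, and Epas1, its relative, fell (-1.52). With the length trend removed they were at -1.56 and -0.91. The targets Adm (-2.56) and Kdm3a (-1.75, or -1.18 with the length trend removed) fell. The glycolytic targets Aldoa (0.76) and Ldha (0.62) rose, and Pgk1 (0.39) rose with TMM scaling but was at 0.02 and did not pass with library size only. Vegfa was at -0.09, did not pass with DESeq2 or without control replicate 3 (-0.09) or FNDC5 replicate 1 (-0.06), and was at 0.28 with the length trend removed.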

How the data were processed

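RNA-seq libraries came from 3 samples of each group. The authors deposited whole-number gene counts, not normalized, and a table of FPKM values for the same genes, in which counts are divided by gene length and a scaled library size. Among the tools in the submitters' notes, whose roles are not stated, are HISAT2 2.1.0 and HTSeq 0.6.0, and the notes give the build mm10, although the identifiers are those of rat Ensembl genes. The rat build is not given in the sources used here.

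The main test was edgeR 4.0.16 under R 4.3.3 (filterByExpr with a minimum count of 10 and a minimum total of 15, TMM scaling, glmQLFit and glmQLFTest, no covariate). Benjamini-Hochberg adjustment ran over 12104 genes. Standard errors were derived from the log2 fold change and its F statistic. Alternatives used DESeq2 1.42.0, limma 3.58.1, other scalings and filters, log2(FPKM + 1) and log2(FPKM + 0.1), a gene length offset (lowess, span 0.3), a replicate block and each library left out. The procedure was tested on simulated data in which few genes changed and no trend with gene length was set. That simulation could not decide between the scalings. Total counts of 16640635 to 17965722 leave small counting error for genes of these levels. Named partner genes were the 4 highest of each list by mean CPM and those past 1.5 on the log2 scale in either direction. The enzymes and lists were chosen with earlier results of these data known. Same-numbered libraries did not deviate together (correlations -0.01 to 0.02). Figures were drawn with matplotlib 3.10.9.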

Additional observations from a re-analysis of the deposited data

How the results depend on the processing

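The counts of enzymes lower (7) and higher (2) at an adjusted p under 0.05 held within 1.5 times under 16 of 17 alternatives. With library size only, 0 enzymes were higher and 8 lower, and 5 in place of 3 were lower past both thresholds. The number past both thresholds was 2 with DESeq2, RLE scaling, both FPKM scales and the length trend removed, where Loxl2 fell short. Leaving out each library in turn gave 7 lower and 2 higher each time, with 2 to 3 lower and 0 higher past both thresholds. Plod1 reversed with upper-quartile scaling (-0.089), library size only (-0.35), at least 10 counts in every library (-0.015) and without replicate 1 (-0.0022) or replicate 3 (-0.0019) of BMSCs-OE-NC, with -0.0022 to 0.038 over all libraries left out, and Plod3 reversed with library size only (-0.052). With upper-quartile scaling the median over all genes tested was -0.14. Library size only put every enzyme lower than TMM scaling did, for example Tgm2 at -2.72 in place of -2.35 and Lox at -2.06 in place of -1.69. Beyond such shifts with the scaling, the cause of these reversals was not tested. The replicate block gave 7 lower, 2 higher and 3 lower past both thresholds, and changed no call among the enzymes. Same-numbered libraries share only a number. Leave-one-out ranges of the log2 ratio differences were -0.92 to -0.88 for Plod2 to Plod1, 0.0048 to 0.09 for P4ha2 to P4ha1, 0.81 to 0.87 for Loxl1 to Lox and 0.62 to 0.72 for Loxl2 to Lox. With the length trend removed, added after seeing the data, they were -0.75, 0.15, 0.45 and 0.13. Genes under about 5 CPM, such as Atp7a, rest on few counts (11 to 120).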

Other observations

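The genes most like each enzyme were sought among 7110 genes of 10 CPM or more on average, by the Euclidean distance between row-centred log2 CPM over the 6 libraries. With 2 groups, this measure mostly matches the size of the difference between them. Nearest to Lox were Mgp, an inhibitor of matrix calcification (distance 0.06, log2 fold change -1.71), and Stc1, a secreted glycoprotein (distance 0.07, log2 fold change -1.68). Nearest to Tgm2 were Cd200, a membrane glycoprotein (0.10, -2.41), and the homeobox gene Meox2 (0.12, -2.34). Axl, a receptor tyrosine kinase, was nearest to Plod2 (0.06, -0.85). P4ha1 lay close to Npepps, an aminopeptidase (0.03, -0.34), and to the matricellular gene Ccn2 (0.04, -0.34). Loxl3 lay close to Pmpca, a subunit of the mitochondrial processing peptidase (0.04, 0.40), and to Ndufv3, a subunit of respiratory complex I (0.05, 0.44).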
